A study of Mus musculus with 12 samples.

Results

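The genes described here encode the red cell membrane skeleton, the protein mesh under the plasma membrane, and the band 3 anchor that ties it to the lipid bilayer. The list held 9 genes, listed by their known role in that structure but with earlier results of these data known: Sptb, Ank1, Epb41, Epb42, Slc4a1, Tmod1, Add1, Add2 and Dmtn. Of these, 7 had a microarray feature of their own among the 30702 genes with such a feature, and all 7 were among the 20128 genes bright enough to be tested. The feature of Add1 is annotated to both Add1 and the microRNA gene Mir7036b, so its signal is given under both names and not as that of Add1. For Epb41 the annotation used here names no feature, and its level was not analysed here.

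The arrays came from a study of selenium and stress erythropoiesis in the spleen of male mice. Phenylhydrazine, a haemolytic drug, was given to every mouse, and on day 3 after it erythroblasts were sorted from the spleen by flow cytometry. The 4 groups, with 3 arrays each, were proerythroblasts of selenium-deficient mice, proerythroblasts of selenium-adequate mice, basophilic erythroblasts of selenium-deficient mice and basophilic erythroblasts of selenium-adequate mice, the mice having been kept on their diet for 3 months. Each array was made from 5 ng of total RNA. Strain, age, sorting gates and the number of mice behind a replicate are not given in the sources used here, so p-values measure the spread between these arrays, which may be in part technical.

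Some arrays stood apart or carried conflicting labels. Replicate 2 of both basophilic groups had the highest signal on the array's background features, with medians of 4.70 on the deficient diet and 4.19 on the adequate diet, where the other 10 arrays had 3.31 to 3.80. Deficient basophilic replicate 3 is called proerythroblasts in its description but basophilic in its title and cell type label, and was kept as basophilic. Over all features it correlated at r = 0.986 with deficient basophilic replicate 1, at 0.910 with deficient basophilic replicate 2, which stood apart, and at 0.962 to 0.969 with the deficient proerythroblast arrays. With adequate basophilic replicates 1, 2 and 3 it correlated at 0.984, 0.953 and 0.983. Expression of erythroblast genes was checked on 10 erythroblast markers. These averaged between 9.66 and 10.64 on the log2 scale over the 12 arrays, where the median of all features on an array was 5.13 to 5.55. This shows that the markers were expressed, not that the sorts were pure. The neutrophil marker Ngp was at a mean of 10.09 in deficient and 9.49 in adequate proerythroblasts. The mean of the erythroblast list cannot check the stage labels, as its lowest deficient basophilic array, at 9.67, lay within the 9.66 to 9.93 of adequate proerythroblasts. Single markers, named after their values were seen, did separate the deficient groups. Kit was at 6.50 or less in every deficient basophilic array and at 6.76 or more in every deficient proerythroblast array. Alas2 was at 12.52 or more and at 11.78 or less. Gata2, a progenitor marker, was instead higher in the basophilic arrays.

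Spectrin tetramers form the strands of the skeleton. The strands are held to the membrane at a pair of complexes. In the first, ankyrin links beta-spectrin to band 3, the anion exchanger, with protein 4.2 bound to both. In the second, the junctional complex, spectrin ends meet on short actin filaments together with the Epb41 product, adducin, dematin and tropomodulin. Loss of several of these proteins is known to cause spherocytosis or elliptocytosis in people or mice, and several of the genes are classical late targets of the erythroid regulators GATA1 and KLF1, which bind AGATAA-type and CACCC-type sequences.

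For orientation, the 250 bases upstream of the start in the RefSeq promoter entry are given for the tested genes with such an entry. They are from build GRCm38.p6, 5′ to 3′ on the strand of the gene. These stretches show which of the letters bound by GATA and KLF factors lie near the start. Capitals mark matches, on either strand, to AGATAA or to CCNCNCCC, the letters searched for as GATA-type and KLF-type motifs. Overlapping matches are joined in 1 run of capitals. The Tmod1 stretch lies at chr4:46038972-46039221 on the plus strand, the Sptb stretch at chr12:76710548-76710797 on the minus strand, the Add2 stretch at chr6:86028431-86028680 on the plus strand and the Epb42 stretch at chr2:121036878-121037127 on the minus strand. The Tmod1 gene is annotated from 46038940, so its stretch lies inside the gene, upstream of a start within it.
Tmod1: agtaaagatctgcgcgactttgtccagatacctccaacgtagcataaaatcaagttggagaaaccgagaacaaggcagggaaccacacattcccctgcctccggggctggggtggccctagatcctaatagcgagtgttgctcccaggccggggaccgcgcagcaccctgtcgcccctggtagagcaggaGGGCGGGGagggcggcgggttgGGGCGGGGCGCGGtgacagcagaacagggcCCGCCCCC
Sptb: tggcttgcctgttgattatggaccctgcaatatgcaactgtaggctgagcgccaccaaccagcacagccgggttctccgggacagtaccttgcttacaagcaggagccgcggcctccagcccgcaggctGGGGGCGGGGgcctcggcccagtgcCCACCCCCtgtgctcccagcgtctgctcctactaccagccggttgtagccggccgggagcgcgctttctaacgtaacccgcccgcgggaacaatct
Add2: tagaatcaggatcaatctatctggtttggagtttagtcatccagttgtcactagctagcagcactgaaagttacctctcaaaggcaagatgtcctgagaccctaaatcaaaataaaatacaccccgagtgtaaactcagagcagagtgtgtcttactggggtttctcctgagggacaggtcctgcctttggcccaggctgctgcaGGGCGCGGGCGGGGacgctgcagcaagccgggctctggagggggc
Epb42: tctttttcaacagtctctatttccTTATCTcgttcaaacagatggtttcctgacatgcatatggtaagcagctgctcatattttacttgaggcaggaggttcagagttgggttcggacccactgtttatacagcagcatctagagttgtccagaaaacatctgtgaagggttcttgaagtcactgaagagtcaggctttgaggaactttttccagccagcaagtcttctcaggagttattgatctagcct

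The KLF-type letters occurred at 4 positions in the Tmod1 stretch, at 3 in the Sptb stretch and at 2 overlapping positions in the Add2 stretch. They had no match in the Epb42 stretch, the one with the lowest GC content (43.2%, against 53.2% to 65.2% in the other stretches). Epb42 alone among them held the GATA-type letters, read as TTATCT on its own strand. Over 32851 promoter windows of the same length, 45.9% held the KLF-type letters and 9.99% the GATA-type letters. The E-box CAGNTG was searched on both strands with overlaps kept. It was at 3 positions in the Epb42 stretch, at 1 each in those of Sptb and Add2 and at none in that of Tmod1. Of all windows, 44.8% had a match. TGAGTCA, the AP-1 type sequence also bound by NFE2, was in none of these 4 stretches and in 4.46% of all windows. These matches describe letters only.

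In proerythroblasts the selenium-deficient diet went with higher skeleton transcripts. All 7 tested genes had 3 deficient arrays above 3 adequate arrays, and 6 of them, all but Add2, rose past an adjusted p of 0.05, by 0.80 to 1.79 on the log2 scale. Over all genes tested, 1.27% were higher at that threshold and 15.5% were higher without overlap of the arrays. As the list was chosen with earlier results known, such shares here and below are a description and not a test. The median difference over the 7 genes was 1.03, and that over all genes 0.02. As these are bulk samples of sorted cells, more cells of a type and more RNA per cell cannot be told apart. All p-values below come from limma with Benjamini-Hochberg adjustment. It was made across the 20128 tested genes in the main fit and across the genes each alternative fit tested. The Add1 and Mir7036b feature was adjusted in a fit with that feature added. Levels are log2 array values, which compare arrays for 1 gene but not genes with each other.

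Sptb encodes beta-spectrin, the chain that carries the ankyrin and actin binding sites of the strand. Its level was 10.53, 10.35 and 10.38 in deficient proerythroblasts, against 9.59, 9.51 and 9.07 in adequate proerythroblasts. Every deficient array was thus at least 0.76 above the highest adequate one. The difference was 1.03 (SE 0.15, 95% interval 0.70 to 1.36, adjusted p = 0.0031), or 2.04-fold.

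The genes of the ankyrin complex came next. Ank1 encodes erythroid ankyrin, which couples beta-spectrin to band 3. It was at 10.99, 11.04 and 10.93 in deficient proerythroblasts, against 10.35, 10.32 and 9.90 in adequate proerythroblasts, a difference of 0.80 (SE 0.15, adjusted p = 0.0134). Slc4a1 encodes band 3, which exchanges chloride for bicarbonate and anchors the skeleton. It was at 13.07, 13.13 and 13.08 in deficient proerythroblasts and at 11.65, 11.95 and 11.51 in adequate proerythroblasts. The deficient arrays lay within 0.06 of each other, and the difference was 1.39 (SE 0.13, 95% interval 1.11 to 1.67, adjusted p = 2.55e-04), or 2.62-fold. The highest value on any array was 14.06 to 14.26, so Slc4a1 was near the top of the scale in 3 of the groups. Epb42 encodes protein 4.2, a transglutaminase-like protein without enzyme activity that stabilises the link of ankyrin and band 3. It was at 11.25, 10.58 and 11.13 in deficient proerythroblasts and at 9.83, 10.19 and 9.79 in adequate proerythroblasts, with replicate 2 the lowest deficient and the highest adequate array. The groups still did not overlap, and the difference was 1.05 (SE 0.18, 95% interval 0.66 to 1.44, adjusted p = 0.0065).

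The genes of the junctional complex held both the largest and the smallest difference of the list. Tmod1 encodes tropomodulin, which caps the slow-growing ends of the short actin filaments. It was at 9.54, 9.54 and 9.67 in deficient proerythroblasts, against 7.89, 7.81 and 7.69 in adequate proerythroblasts. The nearest arrays of the groups lay 1.65 apart. The difference was 1.79 (SE 0.12, 95% interval 1.53 to 2.04, adjusted p = 3.47e-05), or 3.45-fold, and only 27 of the 20128 genes tested had a larger one. Dmtn encodes dematin, which bundles actin and binds spectrin. It was at 10.05, 9.51 and 9.77 in deficient proerythroblasts and at 8.84, 9.03 and 8.65 in adequate proerythroblasts, a difference of 0.94 (SE 0.22, adjusted p = 0.0343).

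Add2 encodes beta-adducin, which with alpha-adducin caps the fast-growing actin ends and recruits spectrin to them. Its level was 10.83, 10.40 and 10.68 in deficient proerythroblasts, against 10.20, 10.24 and 9.90 in adequate proerythroblasts. The groups did not overlap but lay only 0.16 apart at their nearest. The difference of 0.52 (SE 0.15, 95% interval 0.19 to 0.86) missed the threshold (adjusted p = 0.0928), and it passed in the fit with the replicate number as a block within each stage (adjusted p = 0.0319), in which all 7 genes passed. That fit called 2233 of all genes tested in either direction, against 810 in the main fit. The feature annotated to both Add1 and Mir7036b was at 9.74, 9.30 and 9.61 in deficient proerythroblasts and at 9.21, 9.29 and 9.02 in adequate proerythroblasts. Its difference was 0.38 (SE 0.16, adjusted p = 0.280) and did not pass.

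**Figure D1:**
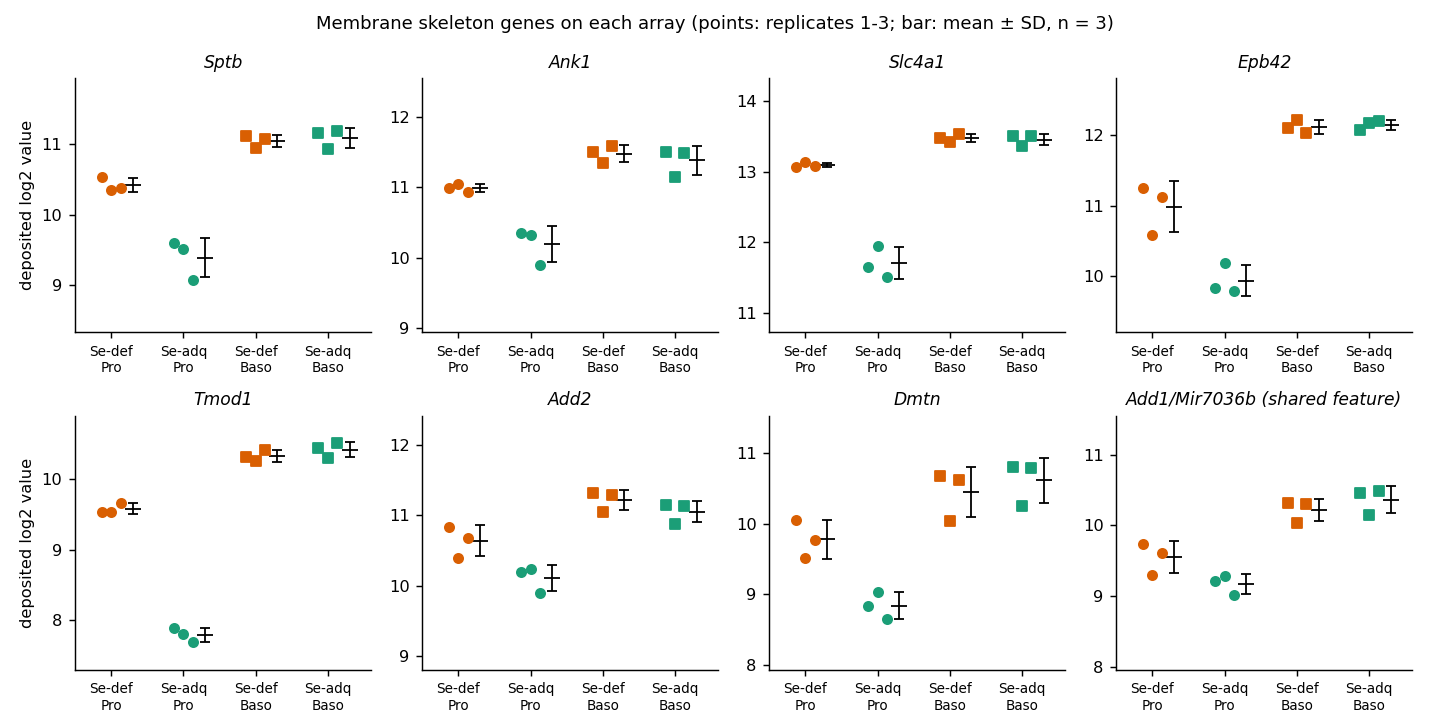
Log2 array value of each skeleton gene (vertical axis) in the 12 arrays, 1 panel per gene and 3 points per group, with the group mean ± SD beside them. The last panel is the feature shared by Add1 and Mir7036b. Adequate proerythroblasts are lowest in every panel, deficient proerythroblasts lie above them, and the 2 basophilic groups overlap.

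The calls were not equally firm. Sptb, Epb42, Slc4a1 and Tmod1 passed when each of the 12 arrays was left out in turn. Ank1 lost the call without deficient proerythroblast replicate 2 or 3, with adjusted p up to 0.0573. Dmtn lost it without adequate basophilic replicate 3, any adequate proerythroblast array or deficient proerythroblast replicate 1 or 3, with adjusted p up to 0.124, and with each array centred on its median (0.105). Add2 gained it without deficient basophilic replicate 2 (adjusted p = 0.0381), where 1806 genes in all were called, against 810 in the main fit.

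As the groups did not overlap for any of the 7 genes, the difference of deficient and adequate proerythroblasts had to be positive in each of the 3 same-numbered pairs. The pairs thus show only how its size varied. Tmod1 differed by 1.65, 1.73 and 1.98 in pairs 1, 2 and 3, and Slc4a1 by 1.42, 1.18 and 1.57. For Epb42 the pairs gave 1.42, 0.39 and 1.34, and for Dmtn 1.21, 0.48 and 1.12. Pair 2 gave the smallest difference for 5 of the 7 genes and pair 3 the largest for 5. Adequate proerythroblast replicate 3 was the lowest array of its group for all 7 genes.

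Markers of the neighbouring stage moved in the same comparison. Of the 3 earlier progenitor markers tested, Kit, a receptor tyrosine kinase of progenitors, fell by 2.18 (adjusted p = 4.67e-05) and Myb, which regulates transcription in the same cells, fell by 2.06 (adjusted p = 2.55e-04). These and the markers that follow are named after their values were seen. The mean over the 4 listed progenitor markers was 6.41 to 6.60 in deficient and 7.40 to 7.62 in adequate proerythroblasts. Of 10 erythroblast markers, 3 rose: Alas2, the first enzyme of haem synthesis in erythroid cells (1.67, adjusted p = 8.89e-04), Nfe2, a transcription factor of globin genes (1.21, adjusted p = 0.0177), and Tfrc, the transferrin receptor (0.97, adjusted p = 0.0347). Their list averaged 10.07 to 10.37 in deficient and 9.66 to 9.93 in adequate proerythroblasts. Gata1 differed by 0.07 and Klf1 by -0.11, and neither passed. The part of these shifts in the skeleton result was not tested.

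Few markers of other cells passed in proerythroblasts. None of the 9 macrophage markers tested passed, and the list averaged 5.92 to 6.59 in deficient and 5.66 to 6.76 in adequate proerythroblasts. Of 10 neutrophil markers, Mmp9, a gelatinase, was the 1 that rose, and the list averaged 7.19 to 8.16 in deficient and 6.81 to 8.20 in adequate proerythroblasts. Itga2b, the platelet integrin alpha chain, was the 1 of 7 megakaryocyte markers tested that rose, and that list averaged 6.11 to 6.38 in deficient and 6.12 to 6.20 in adequate proerythroblasts. None of the 3 B cell and 3 T and NK cell markers tested passed. No list was at the background level, and the part of these cells in the skeleton result was not tested.

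**Figure D2:**
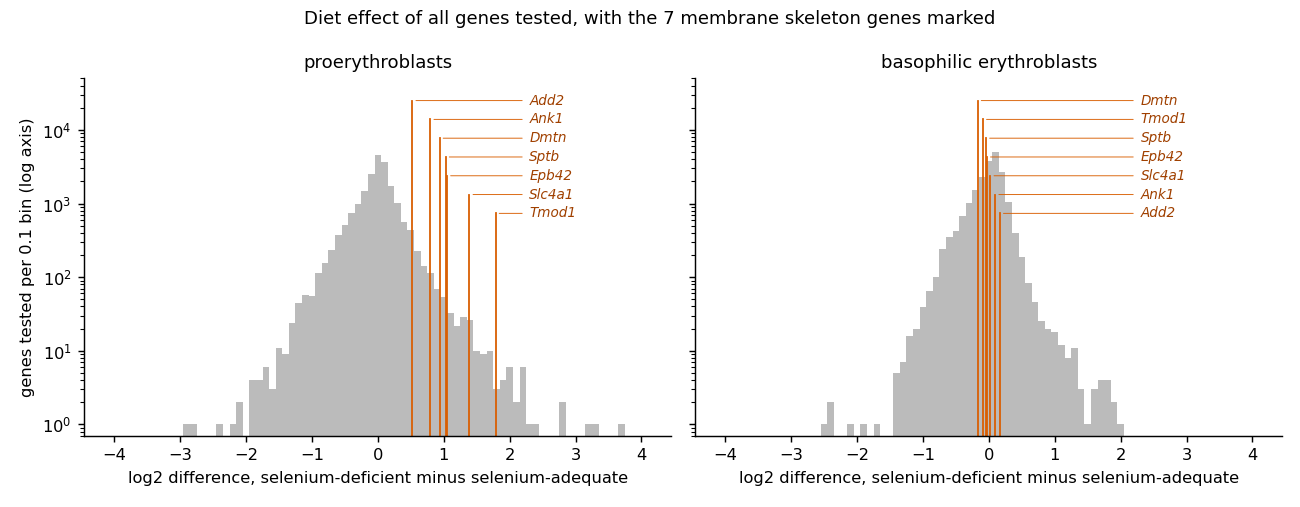
Number of genes tested in each 0.1 bin of log2 difference, deficient minus adequate diet, in proerythroblasts (left) and basophilic erythroblasts (right), with a log vertical axis. Orange lines mark the 7 skeleton genes, which lie between 0.52 and 1.79 on the left and between -0.17 and 0.17 on the right. The height of a line only makes room for its name.

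In basophilic erythroblasts none of the 7 genes passed the test between the diets. The 3 deficient arrays overlapped the 3 adequate arrays for all 7, where 8.04% of all genes tested did not overlap in either direction. By limma, 0 of the 7 passed the adjusted threshold, against 0.0199% of all genes tested in either direction, and 0 had an unadjusted p under 0.05, against 6.48%. Counts of 0 among 7 genes are near these shares. Intervals rather than these p-values limit the size of any difference.

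Sptb was at 11.12, 10.95 and 11.07 in deficient basophilic erythroblasts and at 11.15, 10.93 and 11.19 in adequate ones, a difference of -0.04 (95% interval -0.37 to 0.29). Ank1 was at 11.50, 11.34 and 11.58 in deficient and at 11.50, 11.14 and 11.49 in adequate basophilic erythroblasts, a difference of 0.10 (-0.24 to 0.43). Slc4a1 was at 13.48, 13.42 and 13.53 in deficient and at 13.50, 13.36 and 13.50 in adequate basophilic erythroblasts, and its interval was -0.26 to 0.30. For these genes the arrays of the groups interleaved. Epb42 was at 12.10, 12.22 and 12.03 in deficient and at 12.07, 12.17 and 12.20 in adequate basophilic erythroblasts (interval -0.42 to 0.36). Tmod1, the gene with the largest difference in proerythroblasts, was at 10.31, 10.26 and 10.42 in deficient and at 10.45, 10.30 and 10.51 in adequate basophilic erythroblasts. Its difference was -0.09 with an interval of -0.34 to 0.16.

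The remaining junctional genes gave the widest and the most lopsided intervals. Dmtn was at 10.68, 10.04 and 10.62 in deficient and at 10.81, 10.25 and 10.79 in adequate basophilic erythroblasts, an interval of -0.65 to 0.31. Replicate 2 was the lowest array in both of these groups for 6 of the 7 genes, the exception being Epb42. Add2 was at 11.32, 11.05 and 11.28 in deficient and at 11.14, 10.88 and 11.13 in adequate basophilic erythroblasts, an interval of -0.17 to 0.50. The Add1 and Mir7036b feature was at 10.32, 10.04 and 10.30 in deficient and at 10.46, 10.15 and 10.49 in adequate basophilic erythroblasts, a difference of -0.15 (-0.49 to 0.20). Leaving out replicate 2 of both groups gave 0 of 7 calls, as did leaving out deficient basophilic replicate 3, without which the differences ran between -0.26 for Dmtn and 0.14 for Add2.

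The diet effect was set against stage directly by the interaction, in which the diet difference of proerythroblasts is subtracted from that of basophilic erythroblasts. It was negative for all 7 genes, and 2 passed, against 0.144% of all genes tested that passed in this direction. Tmod1 gave -1.88 (SE 0.16, adjusted p = 0.0022) and Slc4a1 -1.37 (SE 0.18, adjusted p = 0.0130). Sptb at -1.07 (adjusted p = 0.0695), Epb42 at -1.08 (0.106), Dmtn at -1.11 (0.191), Ank1 at -0.70 (0.261) and Add2 at -0.36 (0.774) did not pass. With the replicate number as a block within each stage, Sptb (adjusted p = 0.0207) and Dmtn (adjusted p = 0.0309) passed as well. That fit called 589 genes in all, against 61 in the main fit. Slc4a1 lost its call without adequate basophilic replicate 1 or 3, adequate proerythroblast replicate 1, deficient basophilic replicate 1 or deficient proerythroblast replicate 3 (adjusted p up to 0.0731), Sptb gained one without deficient basophilic replicate 2 (0.042), and Tmod1 passed in all 12 such fits. Slc4a1 was near the top of the array's scale in both basophilic groups, and the effect of that on its interaction was not tested.

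Averaged over both stages, 3 of the 7 genes were higher on the deficient diet, where 0.954% of all genes tested were. They were Tmod1 (0.85, adjusted p = 6.98e-04), Slc4a1 (0.71, adjusted p = 0.0032) and Sptb (0.49, adjusted p = 0.0328). Epb42 at 0.51, Ank1 at 0.45, Dmtn at 0.38 and Add2 at 0.35 did not pass, with adjusted p between 0.0553 and 0.286. This average joins a difference in proerythroblasts with values near 0 in basophilic erythroblasts. All 7 passed with the replicate number as a block within each stage. That fit called 2046 genes in all, against 515 in the main fit. Sptb lost its call in 10 of the 12 fits without 1 array, the exceptions being adequate proerythroblast replicate 1 and deficient basophilic replicate 2, with adjusted p up to 0.0878. Without deficient basophilic replicate 2, Ank1 (adjusted p = 0.0198), Epb42 (0.0437) and Add2 (0.0457) passed too, and Epb42 also passed without deficient proerythroblast replicate 2 (0.0178).

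Maturation on the adequate diet gave the widest differences. All 7 genes were higher in basophilic erythroblasts than in proerythroblasts without overlap, where 41.4% of all genes tested were, and all 7 rose past the threshold, where 28.7% did. Tmod1 rose by 2.62 (6.16-fold, adjusted p = 2.97e-07), Epb42 by 2.21 (4.63-fold, adjusted p = 4.65e-06), Dmtn by 1.78, Slc4a1 by 1.75, Sptb by 1.70, Ank1 by 1.19 and Add2 by 0.94 (1.91-fold, adjusted p = 6.60e-04). The median was 1.75, and 0.12 over all genes. All 7 calls held in every alternative run. The feature of Add1 and Mir7036b was 1.19 higher (SE 0.16). Markers of other cells differed between the stages too. Of the 10 neutrophil markers 7 fell and 1 rose, with a median of -1.65. Of the macrophage markers 2 of 9 tested rose, and of the megakaryocyte markers 3 of 7. The part of such cells in the stage difference was not tested. The split of all calls depended on scaling: 5767 of 10910 were higher, but 2132 of 8215 with each array centred on its median and 2367 of 6589 after quantile normalization. Centring moved the median of all genes from 0.12 to -0.11, and the skeleton median with it to 1.54.

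On the deficient diet the fitted difference of the same step was smaller for each gene. All 7 again rose past the threshold, where 31.1% of all genes tested did, with a median of 0.63 against 0.08 over all genes. Epb42 rose by 1.13 (adjusted p = 0.0013), Tmod1 by 0.75 (adjusted p = 0.0012), Dmtn by 0.67 (0.0252), Sptb by 0.63 (0.0101), Add2 by 0.58 (0.0137), Ank1 by 0.49 (0.0227) and Slc4a1 by 0.38 (0.0278). Only Dmtn overlapped, its basophilic replicate 2 at 10.04 lying just under proerythroblast replicate 1 at 10.05, and 36.9% of all genes tested were higher without overlap. The difference between the 2 steps is the interaction given above, which passed for Tmod1 and Slc4a1 only. On this diet 6 of the 10 neutrophil markers fell with stage and none rose, with a median of -1.31. Their part in the stage difference was not tested.

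The stage calls on the deficient diet were sensitive to scaling. With each array centred on its median, Epb42 and Tmod1 alone passed, and with the arrays of this comparison alone, 3 of 7 did. Without deficient basophilic replicate 3, the array with the conflicting description, Slc4a1 (adjusted p = 0.0546) and Dmtn (0.0601) lost the call. Slc4a1 also lost it without deficient basophilic replicate 1 or any deficient proerythroblast array, Dmtn without deficient basophilic replicate 1 or deficient proerythroblast replicate 2 or 3, and Ank1 without deficient proerythroblast replicate 1 or 3, with adjusted p up to 0.0762 for Slc4a1, 0.0855 for Dmtn and 0.0706 for Ank1. Of all calls, 6258 of 11270 were higher, and 3417 of 9491 with median centring.

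Deficient proerythroblasts lay below adequate basophilic erythroblasts. All 7 genes were lower without overlap, where 38% of all genes tested were, and 5 passed, where 16.9% did in this direction. Epb42 differed by -1.16 (adjusted p = 8.91e-04), Dmtn by -0.84 (0.0164), Tmod1 by -0.84 (5.21e-04), Sptb by -0.67 (0.0079) and Slc4a1 by -0.36 (0.0477). Add2 at -0.41 (0.0536) and Ank1 at -0.39 (0.0625) did not pass. Slc4a1 kept its call in only 3 of the 12 fits without 1 array, those without adequate proerythroblast replicate 2 or deficient basophilic replicate 2 or 3 (adjusted p up to 0.123), and Dmtn lost its own without adequate basophilic replicate 3 or deficient proerythroblast replicate 2 or 3 (up to 0.0587). Without deficient basophilic replicate 2, Ank1 (0.0298) and Add2 (0.0215) passed, and 12921 genes in all did, against 7258 in the main fit. Of the 10 neutrophil markers, 6 were higher in deficient proerythroblasts and none lower. The part of such cells in this comparison was not tested.

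Placed on the log2 distance between the adequate proerythroblast and adequate basophilic means, the deficient proerythroblast mean lay at 79.4% for Slc4a1, 68.1% for Tmod1, 67.1% for Ank1, 60.6% for Sptb, 55.9% for Add2, 52.7% for Dmtn and 47.5% for Epb42. The Add1 and Mir7036b feature lay at 31.6%. These shares use the adequate proerythroblast arrays both in the distance and in the position and are a description. The order of the 4 groups was alike for the 7 genes in its lower part, adequate proerythroblasts and then deficient proerythroblasts. The 2 basophilic groups at the top did not differ beyond their spread, the deficient one being the higher for Ank1, Slc4a1 and Add2 and the adequate one for Sptb, Epb42, Tmod1 and Dmtn.

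A list of other red cell membrane genes was set beside the skeleton. The cut between the lists is not sharp. Actin (Actb) and Gypc stand in this list, though the junctional complex holds actin and the Epb41 product. Actb was at 11.90 ± 0.04 in deficient and 11.88 ± 0.05 in adequate proerythroblasts (SD, n = 3 each). Of 16 listed, 14 were tested, and the others were not analysed here. In proerythroblasts 1 of the 14 rose on the deficient diet, none fell, and their median was 0.41. It was Stom, encoding the integral membrane protein stomatin, at 11.52 ± 0.16 in deficient and 10.87 ± 0.19 in adequate proerythroblasts (SD, n = 3 each; limma difference 0.65, SE 0.14, adjusted p = 0.0194). Gypc, encoding a membrane protein that binds the Epb41 product, had the largest difference of the list, 1.36 (SE 0.43), which did not pass (adjusted p = 0.117). The SE draws on the spread of all 4 groups, and the SD of Gypc was 1.11 in deficient and 0.49 in adequate basophilic erythroblasts. Its levels were 9.11 ± 0.10 in deficient and 7.75 ± 0.18 in adequate proerythroblasts (SD, n = 3 each), and it is named after its values were seen. Stom, Gypc, Rhag, Cd47, Kel, Xk, Mpp1, Tpm1 and Tpm3 had 3 deficient arrays above 3 adequate arrays, as 15.5% of all genes tested did. Rhd, Icam4, Actb, Aqp1 and Slc2a1 did not. The rise without overlap was thus shared by other membrane genes, most of which did not pass. The difference between the lists was not tested. In basophilic erythroblasts none of the 14 passed, with a median of -0.09. With maturation on the adequate diet 9 of the 14 rose and none fell, and on the deficient diet 3 rose and 2 fell. Of all genes tested 28.7% rose on the adequate and 31.1% on the deficient diet.

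Paralogs of the skeleton genes, most of them known from other tissues, gave a median of 0.00 in proerythroblasts. They were dim on average, though, the filter on dim features being 5.3. The 20 with a feature, untested ones included, averaged 6.255 to 6.308 in deficient and 6.1505 to 6.349 in adequate proerythroblast arrays. A median near 0 among dim genes is therefore a weak comparison for the skeleton genes. Of 22 listed, 18 were tested, none rose and 1 fell. This was Epb41l5, a relative of Epb41 found at epithelial junctions, at 5.71 ± 0.16 in deficient and 6.39 ± 0.29 in adequate proerythroblasts (SD, n = 3 each; limma difference -0.69, SE 0.16, adjusted p = 0.0347). Among the paralogs Tmod3, a widely expressed tropomodulin, had the largest difference, 1.53 (SE 0.54), but its adjusted p was 0.168. That SE likewise draws on all 4 groups, and the SD of Tmod3 was 1.41 in deficient and 0.40 in adequate basophilic erythroblasts. Its levels were 9.44 ± 0.49 in deficient and 7.90 ± 0.18 in adequate proerythroblasts (SD, n = 3 each). In basophilic erythroblasts none of the 18 passed. With maturation 5 rose and 1 fell on the adequate diet, and 6 rose and 1 fell on the deficient diet. Of all genes tested 28.7% and 31.1% rose, so these rises are near the shares of all genes.

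**Figure D3:**
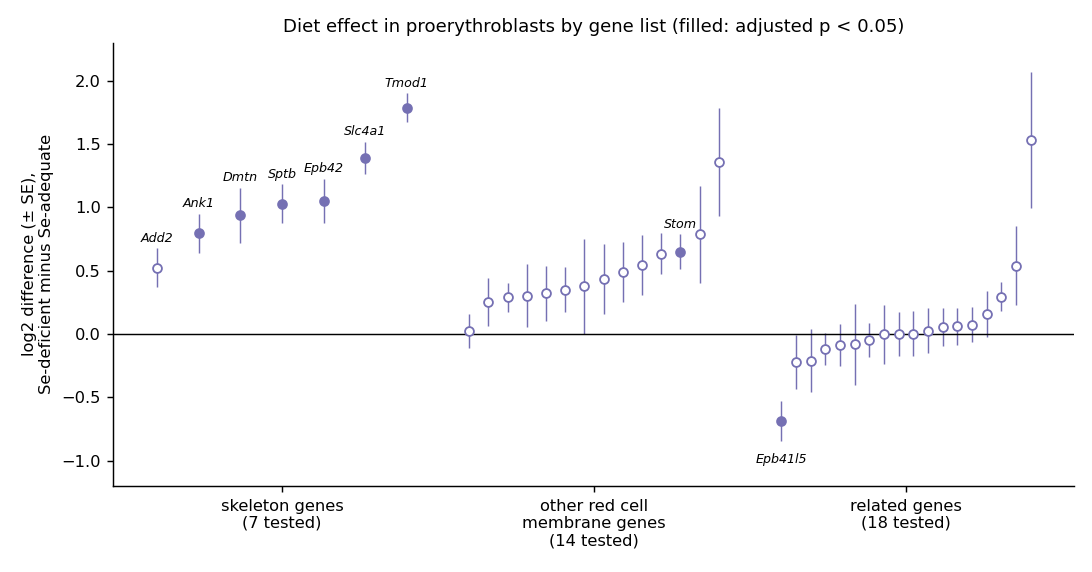
Log2 difference in proerythroblasts, deficient minus adequate diet (vertical axis, ± SE), of the skeleton genes, the other red cell membrane genes and the related genes, each list sorted from low to high. Filled points passed an adjusted p of 0.05: 6 of 7 skeleton genes, 1 of 14 other membrane genes (Stom) and 1 of 18 related genes (Epb41l5, lower). Some other membrane genes with open points still had every deficient array above every adequate one. That list includes actin (Actb) and Gypc, so its cut from the skeleton genes is not sharp. The related genes were dim on average. The difference between the lists was not tested.

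The genes nearest in pattern were sought as those with the smallest root mean square difference of gene-centred log2 values over the 12 arrays, leaving out predicted or unnamed genes. Nearest to Sptb were Dusp8 (0.0852), Sox6 (0.134) and Brpf3 (0.145), and nearest to Dmtn were Sox6 (0.0961), Marchf8 (0.129) and Clcn3 (0.154). Ank1 lay nearest to Diaph3 (0.0985), Tspan33 (0.114) and Stom (0.121), and Slc4a1 to Bmp2k (0.144), Trak2 (0.145) and Fech (0.152), the last encoding the final enzyme of haem synthesis. Add2 lay nearest to Tuba4a (0.0808), Mrm1 (0.105) and Slc43a1 (0.121, with 1 predicted or unnamed gene nearer), and Epb42 to Nt5c3 (0.138), Marchf2 (0.154) and Mxd1 (0.156). Tmod1 had the most distant neighbours, Ppp1r15a (0.151), Ptp4a3 (0.204) and Cdc25b (0.210).

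Between skeleton genes the smallest distances were those of Add2 and Ank1 (0.157), Slc4a1 and Sptb (0.176) and Dmtn and Sptb (0.179). Seen from Slc4a1, Sptb ranked 4 among the other 20127 genes tested, the nearest such rank, and seen from Add2, Tmod1 ranked 13268, the farthest. The largest distance was that of Add2 and Tmod1 (0.660), the genes with the smallest and the largest stage difference on the adequate diet. All these distances share the same 12 arrays, and the measure weighs the size of the differences as well as their shape.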

How the data were processed

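Total RNA of the 12 sorted samples was labelled with the Affymetrix GeneChip WT Pico kit, per the labels' protocols. The authors deposited log2 values for 72688 features, made with Affymetrix Expression Console per the submitters' processing notes; its version, the background correction, the summarisation and the normalization are not given in the sources used here. Array medians of 5.13 to 5.55 show that the deposited log2 values do not share 1 distribution, and no further scaling was applied. The number of arrays limits the precision.

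Features were named through the platform annotation, with symbols updated through RefSeq: 31258 had 1 gene, 1492 several and 39752 none, besides 186 controls. Of several features of a gene, the one with the highest mean was used. A gene was tested if 3 or more arrays exceeded 5.3, the overall median value. Each was fitted with limma 3.58.1 (R 4.3.3) with a mean per group over all 12 arrays and eBayes defaults, after a test on simulated data. The threshold was an adjusted p of 0.05. Python 3.11.15 prepared the tables. The feature shared by Add1 and Mir7036b was fitted as an added row, chosen after seeing the data.

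Every listed gene is named, with its 3 nearest genes, predicted or unnamed ones left out, and, of the membrane and paralog lists, those past the threshold on diet. The members and lists were chosen with earlier results of these data known. Same-numbered arrays of the 2 diets deviated together within each stage (r of 0.18 to 0.52 in proerythroblasts, 0.54 to 0.78 in basophilic erythroblasts). Across stages r was -0.17 to 0.21 for adequate proerythroblasts and 0.02 to 0.28 for deficient proerythroblasts, which overlaps the range within proerythroblasts. The number was taken as a pair within a stage from the data, not from the labels, and these values do not settle that choice. Alternatives were no filter and a stricter one (6.62), median centring, quantile normalization, a robust or trended variance, array weights, 3 replicate blocks, averaged features, the arrays of the comparison alone, and leaving out arrays.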

Additional observations from a re-analysis of the deposited data

Results flagged for a closer look

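The diet effect differed between the stages for Tmod1 and Slc4a1, by the test of the difference itself. For Tmod1 the diet difference of basophilic erythroblasts less the one of proerythroblasts was -1.88 (limma, adjusted p = 0.0022), made of -0.09 in basophilic erythroblasts and 1.79 in proerythroblasts. For Slc4a1 it was -1.37 (limma, adjusted p = 0.0130), made of 0.02 in basophilic erythroblasts and 1.39 in proerythroblasts.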

How the results depend on the processing

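For diet in proerythroblasts 6 of 7 genes were called, 5 with median centring, 7 with array weights, a random replicate block, a replicate block within each stage, or without both basophilic replicates 2, and 4 to 7 when 1 array was left out. The fits that called all 7 also called more genes in all. Array weights gave 8008 and a random replicate block 1236, against 810 in the main fit. A replicate block within each stage gave 2233, and leaving out both basophilic replicates 2 gave 3288. Over both stages the 3 called became 2 with median centring or trended variance, 5 with the stricter filter, quantile normalization, a random replicate block or without replicate 2 of both basophilic groups, 6 with array weights, 7 with a replicate block within each stage, and 2 to 6 without 1 array. The fit with 7 called 2046 genes in all and array weights 2465, against 515 in the main fit. For stage on the deficient diet the 7 called became 2 with median centring, 3 with the arrays of the comparison alone and 4 to 7 without 1 array. For the interaction the 2 called became 3 with array weights or a random replicate block, 4 without replicate 2 of both basophilic groups or with a replicate block within each stage, and 1 to 3 without 1 array. The fits with 4 called 700 and 589 genes in all, in that order, against 61 in the main fit. For deficient proerythroblasts against adequate basophilic erythroblasts the 5 called became 3 with median centring, 4 with no filter, 6 with a fixed replicate block, 7 with quantile normalization, array weights, a random replicate block, the arrays of the comparison alone or without both basophilic replicates 2, and 3 to 7 without 1 array. Of the fits with 7, quantile normalization called 4460 genes in all, array weights 11976 and the random replicate block 9911, against 7258 in the main fit. The paired fit, with the block within each stage, changed no other call of a diet effect. Diet differences in basophilic erythroblasts, none of them called, changed sign for Sptb (0.0483), Epb42 (0.0215) and Slc4a1 (-0.0182) with quantile normalization and for Slc4a1 (-0.0433) with median centring. Without 1 array they ran between -0.123 and 0.0067 for Sptb, -0.0217 and 0.163 for Ank1, -0.0817 and 0.0133 for Epb42, -0.0233 and 0.0517 for Slc4a1, and -0.353 and 0.0333 for Dmtn. The cause was not tested. Over all genes the calls ranged between 314 and 8008 for diet in proerythroblasts (810 as reported, 255 of them higher, 168 of 1012 with median centring), 0 and 420 in basophilic erythroblasts (4), 245 and 2465 over both stages (515, with 192 higher, and 121 of 636 with median centring), 12 and 700 for the interaction (61, with 29 lower, and 16 of 23 after quantile normalization), 2918 and 13993 for stage on the deficient diet (11270), 5613 and 14336 on the adequate diet (10910), and 2923 and 12921 for deficient proerythroblasts against adequate basophilic erythroblasts (7258, with 3399 lower, and 2268 of 6529 with median centring). Slc4a1 lay near the top of the arrays' scale, and the effect of that on its differences was not tested.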
